A study of Mus musculus with 55 samples.

Results

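The genes described here are 9 genes of heme synthesis and iron uptake, measured by bulk RNA-seq in 6 sorted bone marrow populations of WT mice and of mice whose libraries are labelled Tet2-/-. They were chosen by symbol among the 55421 genes of a table of read counts, and all 9 had a row: Alas1, Alas2, Alad, Uros, Urod, Cpox, Ppox, Fech and Tfrc. Across the WT populations, Alas1 was highest in granulocyte-macrophage progenitors, while Alad, Uros, Urod, Cpox, Ppox, Fech and Tfrc had their highest mean in megakaryocyte-erythroid progenitors. Alas2 had a count of 0 in 17 of the 46 libraries and reached 3.16 CPM at most. Between genotypes, Fech was lower in Tet2-/- granulocyte-macrophage and megakaryocyte-erythroid progenitors and Cpox was higher in Tet2-/- common myeloid progenitors, and no other member passed the test at 2-fold or more.

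Heme is an iron-bearing ring made in every nucleated cell and in very large amounts in developing red cells. Its synthesis starts in the mitochondrion, where a 5-aminolevulinate synthase joins glycine and succinyl-CoA. Alas1 encodes the enzyme used by most tissues and Alas2 the one used by erythroid cells. Alad, Uros and Urod act in the cytosol. Cpox, Ppox and Fech, the ferrochelatase that inserts the iron, complete the ring in the mitochondrion. Iron enters through the transferrin receptor Tfrc (CD71). Iron also controls these genes after transcription: iron regulatory proteins bind hairpins called iron-responsive elements, which hold back translation of the Alas2 RNA and protect the Tfrc RNA from decay.

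Hairpins of that kind were looked for in mouse transcripts (GENCODE vM21 on mm10), and those of the members are shown because they tie the first enzyme of the erythroid pathway to the iron receptor. The search was for C, 5 bases, the loop CAGTG followed by A, C or T, and 5 bases that pair with the 5 before the loop, with G-T pairs allowed. It matched 222 of 21877 genes with a protein-coding transcript (1.01%). Of the members other than Fech, Alas2 and Tfrc held such a match. Fech was left out of this listing, so whether it holds a match is not reported. The loop is in capitals below. The Alas2 match lies 5′ of the coding sequence at chrX:150547464-150547480, and the 4 of Tfrc lie 3′ of the coding sequence at chr16:32631225-32631241, chr16:32631604-32631620, chr16:32631669-32631685 and chr16:32631716-32631732, all on the plus strand.
Alas2: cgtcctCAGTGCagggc
Tfrc, site 1: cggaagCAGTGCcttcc
Tfrc, site 2: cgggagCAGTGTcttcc
Tfrc, site 3: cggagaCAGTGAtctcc
Tfrc, site 4: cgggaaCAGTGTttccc

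Promoter windows from 250 bases before to 50 after a start site were taken from RefSeq (GRCm38.p6). Windows were used for 8 of the 9 members, 12 windows in all, since several genes have more than 1 start site. The member left out was Fech, so its promoter was not searched among the members. As most members were highest in megakaryocyte-erythroid progenitors, the windows were searched for words bound by GATA factors, the class of regulator that includes the erythroid factor Gata1. These were AGATAA or the word AGATAG, and with another first base TGATAA or the word TGATAG, on either strand. Such a word was in 3 of the 12 windows, those of Alas2, Cpox and Uros, and in 29.8% of all 32851 windows of 300 bases. The word CCNCNCCC, of the kind bound by Klf factors, was searched as well and was in 11 of the 12 windows and in 49.5% of all windows. Among the 12, the windows of Alas1 overlap each other and share a match of this word, as do those of Alad and those of Tfrc. The 12 are therefore not all separate. The windows of Alas2 (chrX:150547167-150547466, plus strand), the member that is nearly silent, and of Cpox (chr16:58669958-58670257, plus strand), the member with the largest rise from common myeloid to megakaryocyte-erythroid progenitors, are printed with the GATA words in capitals. Alas2 had 1 GATA word at -86 from the start site. Cpox had 3 GATA words at -91, -86 and 4, of which those at -91 and -86 share a base.
Alas2: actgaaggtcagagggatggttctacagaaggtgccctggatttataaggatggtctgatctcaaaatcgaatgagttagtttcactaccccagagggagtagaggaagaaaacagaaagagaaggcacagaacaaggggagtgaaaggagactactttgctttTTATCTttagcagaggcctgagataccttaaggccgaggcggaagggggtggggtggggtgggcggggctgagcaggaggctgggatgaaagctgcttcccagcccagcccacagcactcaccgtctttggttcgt
Cpox: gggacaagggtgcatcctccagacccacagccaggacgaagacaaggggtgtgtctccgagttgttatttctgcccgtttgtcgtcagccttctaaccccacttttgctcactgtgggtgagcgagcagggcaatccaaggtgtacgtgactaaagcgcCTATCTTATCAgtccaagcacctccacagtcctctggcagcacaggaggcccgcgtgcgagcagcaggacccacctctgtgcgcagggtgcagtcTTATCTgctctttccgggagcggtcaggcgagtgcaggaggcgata

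The libraries came from bone marrow of C57BL/6 mice. WT and Tet2-/- groups had 4 libraries for each of common myeloid progenitors (CMP), granulocyte-macrophage progenitors (GMP), megakaryocyte-erythroid progenitors (MEP) and common lymphoid progenitors (CLP); long-term and short-term hematopoietic stem cells (LT-HSC and ST-HSC) had 3 WT and 4 Tet2-/- libraries each. Together these are 46 of the 55 samples of the series; a further set of LT-HSC libraries was not used here. In Tet2-/- mice, floxed Tet2 alleles were deleted by Mx1-Cre, an interferon-driven recombinase that acts in blood cells and other interferon-responsive tissues, after 5 doses of poly(I:C) begun at 4 weeks of age, and the marrow was taken 16 weeks after induction. Whether WT mice received poly(I:C) is not stated. The labels give 200 sorted cells per library, and the methods of the study a larger number. All stem and progenitor gates were negative for a lineage cocktail that includes Ter119, which takes out erythroblasts, and positive for Kit; MEP were CD34- and CD16/32low, GMP CD34+ and CD16/32high, and CMP lay between them. Tfrc (CD71) was part of no gate.

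Levels are CPM scaled by the TMM factors of edgeR, and a gene was called at a Benjamini-Hochberg adjusted p of 0.05 in edgeR's quasi-likelihood test with at least a 2-fold change. Replicates are the libraries the labels number within a group, and p-values measure the spread between these libraries, which the legends of the study count as mice and the labels do not describe further. Depth ran from 50458473 to 102148079 counts per library, so a member at 10 CPM rests on far more counts than the floor of 3. Tet2 itself stood between 2.26 and 41.7 CPM in WT and between 6.10 and 72.7 CPM in the libraries labelled Tet2-/-; a count over the whole gene includes reads outside a deleted part and so does not check the labels. Defining markers fitted the MEP and GMP labels, with a summed level of 14 erythroid markers of 17626 to 20223 CPM in WT MEP against 36.5 to 127 CPM in WT GMP, and of 7 granulocyte-macrophage markers of 31696 to 43873 CPM in WT GMP against 15.2 to 60.4 CPM in WT MEP. The CLP libraries went against a uniform population. Ighm, the immunoglobulin mu chain, took 10.3% to 15.9% of counts in WT CLP and 0.0616%, 4.11%, 9.84% and 9.56% in Tet2-/- CLP. Of 6 lymphoid and 7 B cell markers, Rag1, Pax5 and Vpreb1 were at 0 in all 4 WT CLP libraries. Others went the other way: Ighm, Il7r, Cd79a and Cd79b were called higher in WT CLP than in WT ST-HSC, while Vpreb1 was called lower. The B cell marker sum was 538 to 1055 CPM in WT CLP against 71.3 to 82.6 CPM in WT ST-HSC. Replicate 3 of Tet2-/- CLP held 12609 CPM of granulocyte-macrophage and 1585 CPM of megakaryocyte markers.

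The WT libraries of CMP, GMP and MEP stood apart from the rest as well. Iscu, a scaffold of iron-sulfur cluster assembly, was at 57.2 to 101.6 CPM in these 12 libraries and at 2.28 to 13.7 CPM in the 26 other libraries outside CLP. Between the genotypes, 258 genes were called lower in Tet2-/- in all of CMP, GMP and MEP, which share no libraries, and 5 were called higher in all 3; the 258 are 41.0% of the lower calls in CMP, 38.4% in GMP and 41.0% in MEP. The labels give no batch, so a batch and the genotype cannot be told apart in these populations.

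**Figure D1:**
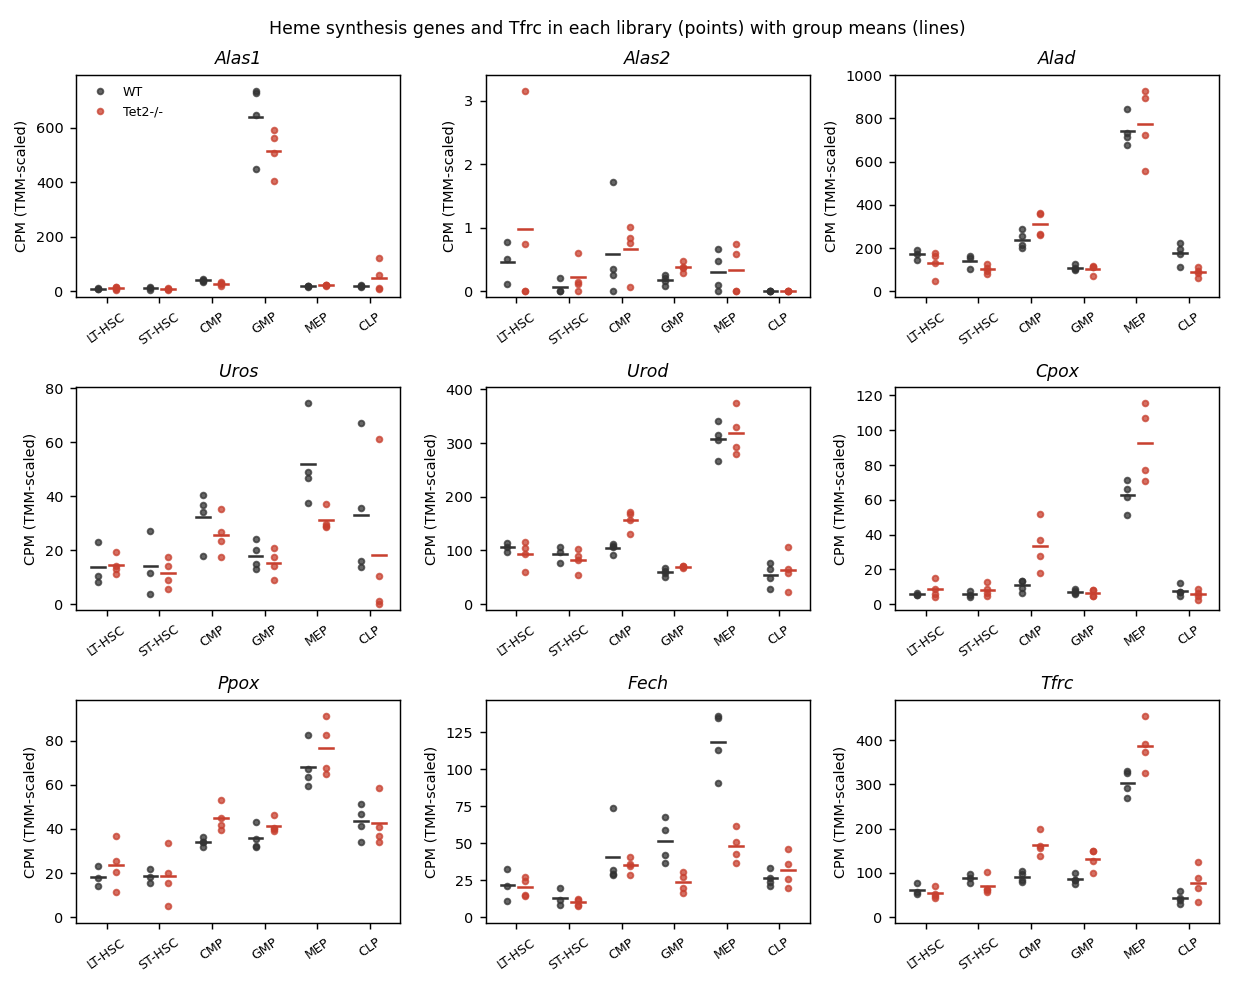
Level of each member in each of the 46 libraries, in TMM-scaled CPM on linear axes with a scale of their own, by population; points are libraries and lines are group means, WT in black and Tet2-/- in red. Alas1 peaked in GMP at 640.3 CPM in WT, Alas2 stayed at or under 3.16 CPM, and most other members were highest in MEP.

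The choice between the 2 synthases of the first step was lopsided in every population. Alas2 had 1272 counts over all 46 libraries and Alas1 had 412692, of which 187633 were in WT GMP and 162080 in Tet2-/- GMP. These counts and the shares below are not scaled for exon length, which is 2403 bases for Alas2 and 6174 bases for Alas1. Alas2 had a count of exactly 0 in 17 libraries, among them all 8 CLP libraries. Such a count does not show that the RNA was absent. In WT MEP its replicates stood at 0.0983, 0, 0.475 and 0.661 CPM and in Tet2-/- MEP at 0, 0.592, 0 and 0.743 CPM. The groups overlapped and no MEP library had more than 59 Alas2 counts, although the same WT MEP libraries held 217 to 271 CPM of Gata1. The highest Alas2 level of all was 3.16 CPM (240 counts) in replicate 5 of Tet2-/- LT-HSC, whose other replicates were at 0.740, 0 and 0 CPM. As a share of the counts of both synthases, Alas2 had its highest WT median in LT-HSC, at 6.34% (up to 9.18%). In Tet2-/- the median was 2.88% in CMP and 2.11% in LT-HSC, where replicate 5 stood at 23.8%. The median was 1.51% in WT MEP, 1.32% in Tet2-/- MEP and 0.0283% in WT GMP. No comparison called Alas2, and it was too low to be tested between the genotypes in CLP. Its reads can also belong to Apex2 or Mir3620, whose exons overlap it on the other strand, since the counting is not stated to use strand.

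Alas1 marked GMP. The WT GMP replicates held 449, 647, 729 and 736 CPM, and the WT CMP replicates 36.9, 35.7, 46.9 and 40.4 CPM. All GMP libraries lay far above all CMP libraries, about 16.3-fold in the edgeR fit (log2 fold change 4.03, SE 0.28, adjusted p = 8.19e-08). WT MEP stood lower than CMP, at 15.5, 18.2, 19.4 and 21.3 CPM (log2 fold change -1.15, SE 0.26, adjusted p = 0.00641); that call was lost when all 46 libraries shared one fit (log2 fold change -1.10, adjusted p = 0.166). CMP in turn exceeded WT ST-HSC, at 15.7, 5.87 and 11.5 CPM, by 1.84 (SE 0.29, adjusted p = 0.000445). WT LT-HSC, with 12.4, 7.67 and 7.59 CPM, were not distinguishable from ST-HSC (log2 fold change -0.27, SE 0.29, adjusted p = 1). The order of WT means was therefore GMP, CMP, CLP, MEP, ST-HSC and LT-HSC, and only the steps from GMP to CMP and from CMP to CLP separated neighbours without overlap. Exons of 4930500F10Rik overlap Alas1 on the other strand. Fewer cells of a type and less RNA per cell cannot be told apart in these bulk samples, here and below.

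The cytosolic steps were highest in MEP. For Alad, which condenses a pair of aminolevulinate molecules, WT MEP replicates held 732, 677, 843 and 715 CPM against 286.5, 216, 198.5 and 257 CPM in WT CMP, with no overlap (log2 fold change 1.59, SE 0.20, adjusted p = 2.44e-05). GMP lay below CMP for this gene, at 129, 103, 96.9 and 108 CPM (log2 fold change -1.11, SE 0.20, adjusted p = 0.002). Urod, which removes carboxyl groups from uroporphyrinogen, reached 267, 306, 341 and 316 CPM in WT MEP against 111, 107, 92.4 and 109 CPM in WT CMP (log2 fold change 1.51, SE 0.22, adjusted p = 0.000115). Its drop from CMP to GMP (log2 fold change -0.79, SE 0.22, adjusted p = 0.0384) was under 2-fold, with GMP at 50.3 to 67.5 CPM below every CMP library. In edgeR fits without single libraries the adjusted p of this drop ran from 0.0389 to 0.0793, so it did not always pass. The log2 fold change was -0.91 to -0.77 in those fits. Uros, which closes the ring, varied between replicates: WT MEP stood at 37.6, 46.6, 49.0 and 74.4 CPM and WT CMP at 34.1, 17.9, 36.7 and 40.6 CPM, which overlap (log2 fold change 0.64, SE 0.54, adjusted p = 0.6). Among WT CLP libraries Uros ran from 13.6 to 67.1 CPM, and in Tet2-/- CLP from 0 to 61.4 CPM.

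The mitochondrial steps followed. Cpox, coproporphyrinogen oxidase, had the largest rise of all members from CMP to MEP: its WT MEP replicates held 66.5, 51.1, 61.7 and 71.4 CPM against 13.5, 9.55, 6.69 and 13.4 CPM in WT CMP (log2 fold change 2.50, SE 0.34, adjusted p = 5.89e-05). Ppox, the next oxidase, was higher in WT MEP (59.6 to 82.5 CPM) than in WT CMP (31.6 to 36.4 CPM) without overlap, but at 1.94-fold it stayed under the fold minimum (log2 fold change 0.96, SE 0.20, adjusted p = 0.00466); leaving out WT CMP replicate 2 or WT MEP replicate 2 brought it to 1.02 and 1.01, past the minimum, as did the GC correction of the transcript start (1.07) and one fit of all 46 libraries (1.01). Exons of Gpr15 overlap Cpox and exons of B4galt3 overlap Ppox on the other strand. Fech in WT MEP stood at 90.9, 136, 134 and 113 CPM. Its WT CMP replicates were at 74.0, 31.5, 28.8 and 28.4 CPM, so replicate 2 lay far above the other 3 libraries, though below all of MEP (log2 fold change 1.51, SE 0.36, adjusted p = 0.0114).

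Tfrc followed the enzymes. WT MEP replicates held 292, 269, 329 and 325 CPM and WT CMP replicates 84.9, 79.5, 105 and 97.4 CPM, without overlap (log2 fold change 1.68, SE 0.18, adjusted p = 2.81e-06). WT GMP were at 75.8 to 98.8 CPM and overlapped CMP (log2 fold change -0.08, SE 0.17, adjusted p = 0.931). From ST-HSC to CMP the receptor did not move measurably (log2 fold change 0.05, SE 0.19, adjusted p = 0.951), while Alas1 did.

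Counted over the 9 members, 5 were called higher and 1 lower in WT MEP than in WT CMP, where 0.93% of the 20006 genes tested were called higher and 5.52% lower. These shares are 186 and 1105 genes, which became 314 and 985 once counts were corrected for GC in the 200 bases at the transcript start. The members' median log2 fold change was 1.51 and that of all genes -0.12. In WT GMP against WT CMP 1 member was called higher and 1 lower, against 1.6% and 1.54% of genes; both comparisons share the WT CMP libraries. The 321 genes called higher in GMP became 265 without WT GMP replicate 4 and 169 to 201 without any one of the other 7 libraries. In these GMP libraries 8 of 13 erythroid and 6 of 8 megakaryocyte markers were called lower than in CMP, with a summed erythroid level of 36.5 to 127 against 963 to 2612 CPM, and the mitochondrial percent was 3.64 to 4.60 against 5.94 to 6.57, without overlap. In the MEP libraries 7 of 7 granulocyte-macrophage markers were called lower than in CMP, and 3 of 8 megakaryocyte markers were as well. Of 13 erythroid markers tested only Car2 was called higher, although the summed erythroid level was 17626 to 20223 CPM in MEP against 963 to 2612 CPM in CMP, without overlap. The mitochondrial percent was 6.85 to 9.18 in MEP, above all of CMP. The part of such cell mixtures and of the mitochondrial percent in the members' differences was not tested.

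**Figure D2:**
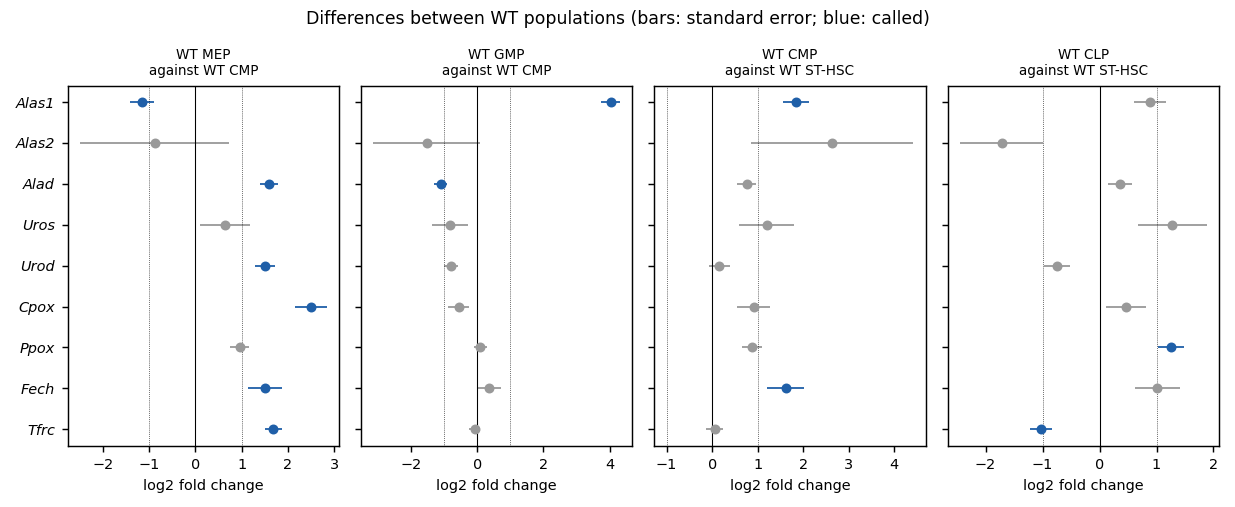
Log2 fold changes (points) with standard errors (bars) of the 9 members in 4 comparisons of WT populations; blue points passed an adjusted p of 0.05 and 2-fold, and dotted lines mark 2-fold. Cpox, Tfrc, Alad, Urod and Fech lie to the right in MEP against CMP, while Alas1 lies at 4.03 in GMP against CMP.

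Of the 9 members, 2, Alas1 and Fech, were called higher in WT CMP than in WT ST-HSC, where 3.77% of genes were called higher and 1.23% lower. Fech stood at 11.5, 19.8 and 8.31 CPM in ST-HSC (log2 fold change 1.61, SE 0.40, adjusted p = 0.0202), and the call was lost without WT CMP replicate 2 (1.17, adjusted p = 0.0741), WT ST-HSC replicate 2 (1.54, adjusted p = 0.0954) or WT ST-HSC replicate 5 (1.37, adjusted p = 0.117), while the log2 fold change stayed past the fold minimum in each case. Alad (log2 fold change 0.76, SE 0.21, adjusted p = 0.0408) and Ppox (0.87, SE 0.22, adjusted p = 0.0234) passed the adjusted p but not the fold minimum. Alad no longer passed without any one of the 3 WT ST-HSC libraries or without WT CMP replicate 2 or 5 (adjusted p up to 0.206), and Ppox no longer without WT ST-HSC replicate 2 or 5 or WT CMP replicate 2 (up to 0.125). All 9 members had a log2 fold change above 0 here, with a median of 0.91 against 0 over all genes. These WT CMP libraries are among the 12 that stood apart, with Iscu at 59.7 to 89.5 CPM against 3.36 to 13.3 CPM in WT ST-HSC. The sum of 7 granulocyte-macrophage markers (3844 to 5367 against 156 to 233 CPM), that of 8 megakaryocyte markers (569 to 876 against 158 to 170.4 CPM), that of 7 stem cell markers (43.9 to 67.5 against 366 to 391 CPM) and the mitochondrial percent (5.94 to 6.57 against 8.73 to 9.02) did not overlap either, and their part in these calls was not tested. Between WT LT-HSC and WT ST-HSC edgeR called 0 of 9 members, where 0.03% of genes were called higher and 0.145% lower. DESeq2 also called 0 members, with 356 genes higher and 432 lower of 28682, and at an unadjusted p under 0.05 only Tfrc differed, lower in LT-HSC (log2 fold change -0.54, SE 0.20, adjusted p = 0.468).

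For WT CLP against WT ST-HSC, Ppox was called higher (34.1 to 51.4 against 15.6 to 21.9 CPM, log2 fold change 1.25, SE 0.23, adjusted p = 0.000356) and Tfrc lower (29.4 to 57.8 against 78.0 to 96.9 CPM, log2 fold change -1.03, SE 0.19, adjusted p = 0.000344). The background is large in this comparison, with 10.2% of genes called higher and 14.3% lower, so 1 member in each direction does not stand out from it. The libraries differed in other ways as well. The sum of 7 granulocyte-macrophage markers was 3192, 1131, 4.65 and 32.4 CPM in WT CLP replicates 2 to 5 and 156 to 233 CPM in WT ST-HSC. The sum of 14 erythroid markers was 99.2 to 208 CPM in WT CLP against 1879 to 2091 CPM in WT ST-HSC, without overlap, and 7 of 13 erythroid and 6 of 8 megakaryocyte markers were called lower. The mitochondrial percent was 2.41 to 4.58 against 8.73 to 9.02; their part in these calls was not tested. The Tfrc call also lay at the fold minimum: the log2 fold change was -0.98 without WT ST-HSC replicate 3, -0.89 without WT CLP replicate 5, -0.88 with RLE scaling, -0.91 with DESeq2 and -0.54 (adjusted p = 0.0629) once counts were corrected for GC in the 200 bases at the transcript start. With that correction 2790 genes were called higher and 1875 lower, against 2043 and 2858 without it, and the median of all genes moved from -0.10 to 0.13. Fech, not called here (log2 fold change 1.01, adjusted p = 0.0619), was called higher with that correction (1.75), RLE scaling (1.15), DESeq2 (1.13), one fit of all 46 libraries (1.03) and without WT ST-HSC replicate 3 (1.4). Alas1 (0.89, adjusted p = 0.0225) was called higher with the correction (1.55), RLE scaling (1.04), DESeq2 (1.02) and without WT ST-HSC replicate 2 (1.25), and Uros (1.27, adjusted p = 0.119) with the correction (1.77) and without WT ST-HSC replicate 3 (2.14).

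On a scale that allows genes to be compared with each other, CPM per kb of exons, the members spanned several orders of magnitude within one population. In WT MEP the mean levels were 396.5 CPM per kb for Alad, 119 for Urod, 49.1 for Tfrc, 15.1 for Ppox, 14.5 for Uros, 9.41 for Cpox, 8.56 for Fech, 3.01 for Alas1 and 0.128 for Alas2. The first enzyme was thus the lowest step in MEP by this measure. In WT GMP the order turned, with 103.7 CPM per kb for Alas1 above the 58.3 of Alad, the 22.9 of Urod and the 1.07 of Cpox. The exon length used is the union of all annotated exons, which for Fech, with 13838 bases, and for other genes with long ends lowers the value.

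**Figure D3:**
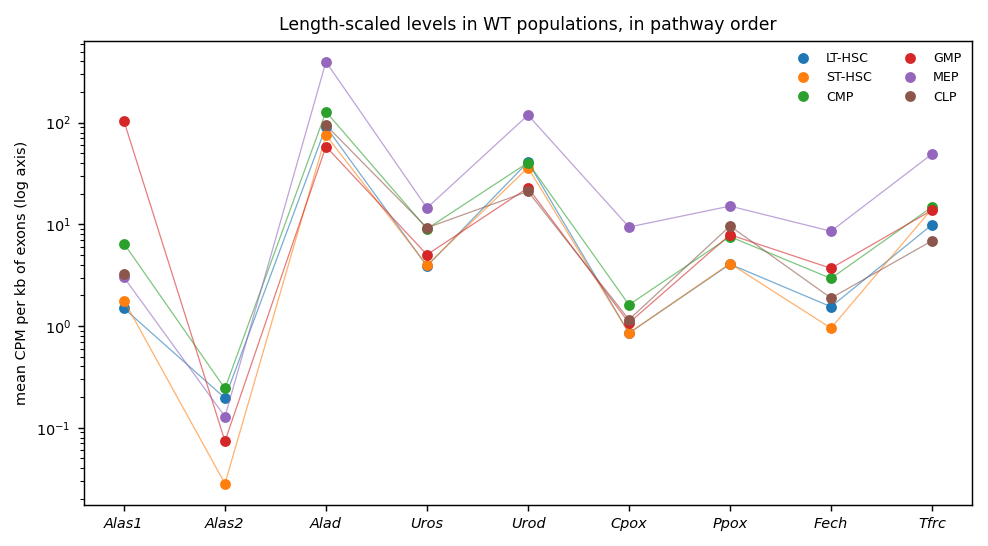
Mean level per kb of exons (log axis) of the members in pathway order in the 6 WT populations; each color is a population and points are joined only to guide the eye, with Alas2 in CLP left out because it is at 0. MEP tops every member except Alas1, which is highest in GMP at 103.7 CPM per kb, and Alas2, which is near the bottom throughout.

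The question of the genotype comparison was whether these genes differ in progenitors that lack Tet2, an enzyme that oxidizes methylcytosine in DNA. Fech was the member that fell. In MEP the WT replicates held 90.9, 136, 134 and 113 CPM and the replicates labelled Tet2-/- 61.5, 36.5, 42.4 and 51.0 CPM, without overlap (118 ± 21.1 against 47.8 ± 10.9, mean ± SD, n = 4 each; log2 fold change -1.31, SE 0.19, edgeR adjusted p = 0.00323). The level in Tet2-/- MEP was 0.403 of that in WT. GMP showed the same direction, with 67.6, 58.7, 36.5 and 41.9 CPM in WT and 16.2, 27.3, 19.6 and 30.5 CPM in Tet2-/-, again without overlap (log2 fold change -1.17, SE 0.24, adjusted p = 0.0123). In CMP the genotypes overlapped, at 28.4 to 74.0 CPM in WT and 28.4 to 40.8 CPM in Tet2-/- (log2 fold change -0.23, SE 0.31, adjusted p = 0.776). Without single libraries this log2 fold change ran from -0.37 to 0.22, so its direction in CMP was not stable. LT-HSC (-0.08, SE 0.44), ST-HSC (-0.37, SE 0.42) and CLP (0.23, SE 0.47) had log2 fold changes of Fech within their errors.

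The WT GMP and MEP libraries against which Fech was measured are among those described above with high Iscu, as are the WT CMP libraries (59.7 to 89.5 CPM, against 3.07 to 5.31 CPM in Tet2-/- CMP), where Fech was not called. Between the genotypes in GMP, the percent of counts from mitochondrial genes (3.64 to 4.60 in WT, 4.74 to 5.09 in Tet2-/-), the sum of 6 lymphoid markers (117 to 187 and 93.9 to 109 CPM) and the sum of 7 sorting markers (1148 to 1267 and 1289 to 1491 CPM) did not overlap either, and the megakaryocyte marker Itga2b was called higher. In MEP the mitochondrial percent overlapped (6.85 to 9.18 and 8.96 to 9.74), the sum of 7 stem cell markers did not (78.7 to 88.9 and 91.3 to 118 CPM), and the megakaryocyte markers Gp5 and Gp1bb and the erythroid markers Klf1, Hba-a1 and Hba-a2 were called lower. Their part in the Fech result was not tested. Fech has the highest GC content of the members in its first 200 bases (78.0%, against 46.5% to 68.0% in the other 8). After a correction of each library for that GC content the Fech change was -1.29 in MEP (adjusted p = 0.00218) and -1.16 in GMP (adjusted p = 0.0181), about as large as without it. In one fit of all 46 libraries the change in GMP was as large but not called (log2 fold change -1.13, adjusted p = 0.135), and the MEP call was kept. The gene lies on chromosome 18 (64452914 to 64490251 in mm10, minus strand) and no annotated exon of another gene overlaps it.

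Cpox was the member that rose, in CMP. Its WT replicates held 13.5, 9.55, 6.69 and 13.4 CPM and the Tet2-/- replicates 27.5, 52.1, 18.2 and 36.7 CPM, all above the highest WT library (log2 fold change 1.63, SE 0.35, adjusted p = 0.0229), about 3.10-fold. Without WT replicate 3, 4 or 5 the log2 fold change was 1.58, 1.46 and 1.75 with an adjusted p of 0.0739, 0.0673 and 0.0503, and without Tet2-/- replicate 3 or 5 it was 1.34 and 1.58 with an adjusted p of 0.0556 and 0.0672, so the call was lost while the change stayed of like size. In MEP, where Cpox is highest, WT stood at 51.1 to 71.4 CPM and Tet2-/- at 70.9 to 115 CPM, which overlap slightly (log2 fold change 0.56, SE 0.19, adjusted p = 0.168). GMP had 5.79 to 8.58 CPM in WT and 4.81 to 8.34 CPM in Tet2-/-.

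Urod and Tfrc moved with Cpox in CMP at smaller size. For Urod, WT CMP held 111, 107, 92.4 and 109 CPM and Tet2-/- CMP 131, 157, 171 and 168 CPM, without overlap (log2 fold change 0.57, SE 0.12, adjusted p = 0.0201). Tfrc stood at 84.9, 79.5, 105 and 97.4 CPM in WT and 139, 200, 157 and 160 CPM in Tet2-/-, without overlap (log2 fold change 0.83, SE 0.15, adjusted p = 0.00864). Both passed the adjusted p and missed the fold minimum. The adjusted p of Urod rose above the threshold without WT replicate 4 (0.0641), WT replicate 5 (0.0523), Tet2-/- replicate 4 (0.0608) or Tet2-/- replicate 5 (0.0586), with the replicate block (0.0859) and in one fit of all 46 libraries (0.487), and that of Tfrc did so in the fit of all libraries (0.0837). In these fits the log2 fold change of Urod was 0.51 to 0.58 and that of Tfrc 0.84, about as large as before. In GMP Tfrc reached 98.9 to 150 CPM in Tet2-/- against 75.8 to 98.8 CPM in WT (log2 fold change 0.58, SE 0.16, adjusted p = 0.0636), and in MEP 326 to 454 against 269 to 329 CPM (log2 fold change 0.34, SE 0.11, adjusted p = 0.158). Uros went the other way in MEP, with 37.6, 46.6, 49.0 and 74.4 CPM in WT and 29.7, 28.6, 37.1 and 29.1 CPM in Tet2-/-, which do not overlap but did not pass the adjusted p (log2 fold change -0.74, SE 0.21, adjusted p = 0.0842).

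The summed level of 14 erythroid markers moved with these members in CMP. It was 963 to 2612 CPM in WT CMP, against 4014 to 7786 CPM in Tet2-/- CMP, without overlap; of 13 markers tested, Car2, Rhag, Epor, Ermap and Car1 were called higher and Klf1 was called lower, and Slc4a1 was at 0 in all 8 libraries. The mitochondrial percent (5.94 to 6.57 in WT, 7.85 to 8.37 in Tet2-/-) and the sum of 6 lymphoid markers (184 to 301 and 119 to 145 CPM) did not overlap in CMP either, Gp5, Gp1bb and Ighm were called lower, and the stem cell marker Mllt3 was called higher. The part of these shifts in the higher Cpox, Urod and Tfrc was not tested. In MEP the same sum was 17626 to 20223 CPM in WT and 19100 to 24916 CPM in Tet2-/-, and 3 of 13 markers, Klf1, Hba-a1 and Hba-a2, were called lower while 0 were called higher. Klf1, an erythroid transcription factor whose value was looked up after the marker counts were seen, stood at 239 to 402 CPM in WT MEP and 25.2 to 48.6 CPM in Tet2-/- MEP (log2 fold change -3.13, SE 0.28, adjusted p = 0.000203), while Gata1 stood at 217 to 271 and 227 to 285 CPM.

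**Figure D4:**
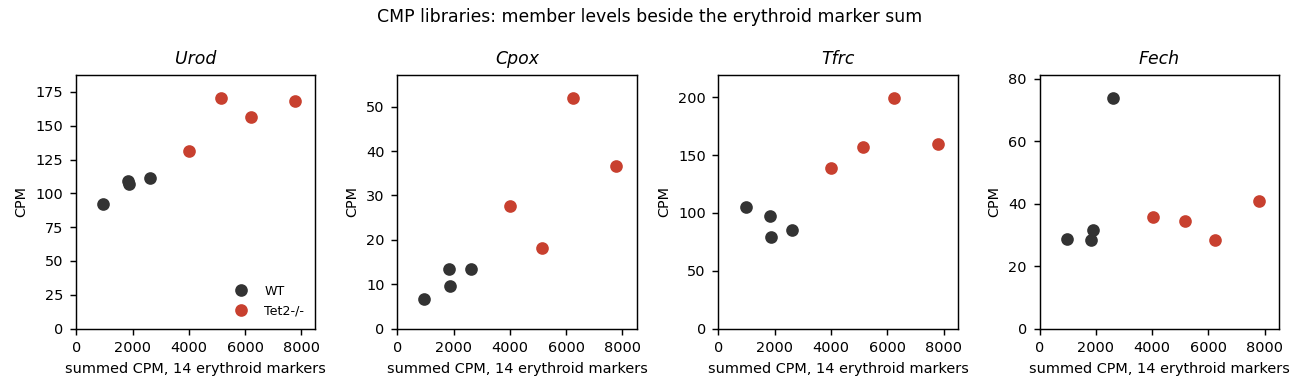
Levels of Urod, Cpox, Tfrc and Fech (CPM) in the 8 CMP libraries against the summed CPM of 14 erythroid markers in the same library, WT in black and Tet2-/- in red. The Tet2-/- libraries lie to the right, at 4014 to 7786 CPM of markers, and above WT for Urod, Cpox and Tfrc but not for Fech.

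Few members were called between the genotypes. In CMP 1 of 9 members was called higher, against 0.654% of genes, and 0 lower, against 3.92%. GMP had 1 member lower, against 4.06% of genes, and 0 higher, against 0.308%. MEP had 1 member lower, against 4.21% of genes, and 0 higher, against 0.147%. Each of these counts is 1 gene of 9 and is no result about the group. Median log2 fold changes of the members were 0.37 in CMP, -0.11 in GMP and 0.11 in MEP, beside 0.03, 0.03 and 0.05 over all genes tested. DESeq2 called 1 member in each of the 3 populations.

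In the other populations edgeR called 0 members, and DESeq2 also called 0. The background of edgeR was 0.0245% of genes higher and 0% lower in LT-HSC, 0.0185% and 0% in ST-HSC, and 0.00766% and 0% in CLP; over all genes DESeq2 called 150 higher and 80 lower of 22609 in LT-HSC, 193 and 132 of 22809 in ST-HSC and 277 and 166 of 19025 in CLP. At an unadjusted p under 0.05 no member differed in LT-HSC or ST-HSC, and 1 of 8 tested, Alad, differed in CLP, with 113.5, 224, 195 and 174.5 CPM in WT and 61.9, 83.0, 95.1 and 113 CPM in Tet2-/- (log2 fold change -1.06, SE 0.31, adjusted p = 0.977). One fit of all 46 libraries called this change (log2 fold change -1.05, adjusted p = 0.00757), and with it 1002 genes higher and 475 lower in Tet2-/- CLP. The sum of 14 erythroid markers (99.2 to 208 CPM in WT, 222 to 396 CPM in Tet2-/-) and that of 6 lymphoid markers (146409 to 268717 and 2228 to 132661 CPM) did not overlap between the genotypes in CLP, and their part in the Alad difference was not tested. Alas1 in Tet2-/- CLP ranged from 9.63 to 121 CPM, and its highest libraries, replicates 3 (121 CPM) and 5 (59.6 CPM), also had the highest granulocyte-macrophage marker sums (12609 and 4331 CPM, against 2.75 and 2416 CPM in replicates 2 and 4) and megakaryocyte marker sums (1585 and 434 CPM, against 0.154 and 0.559 CPM); the part of these markers in the Alas1 level was not tested. In WT CLP replicates 2 to 5, Alas1 stood at 20.97, 21.44, 15.42 and 22.99 CPM. The granulocyte-macrophage sums of these libraries were 3192, 1131, 4.65 and 32.4 CPM. The lowest Alas1 level and the lowest sum were both in replicate 4. The highest Alas1 level was in replicate 5 and the highest sum in replicate 2. Whether Alas1 followed these sums in WT CLP was not tested.

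**Figure D5:**
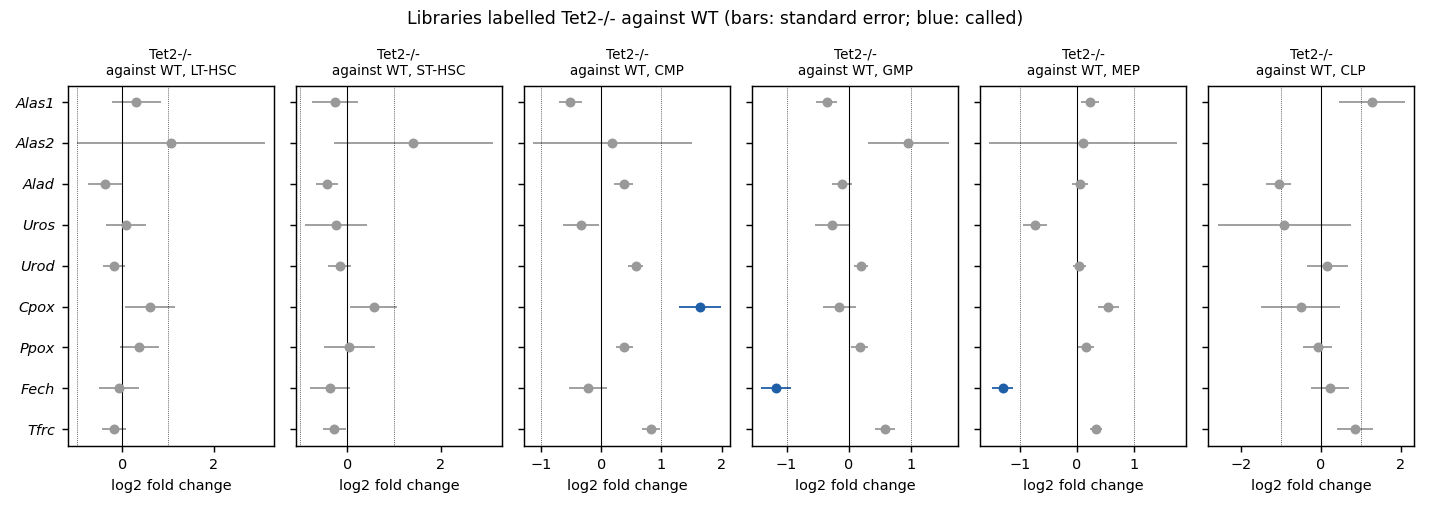
Log2 fold changes (points) with standard errors (bars) of the members in Tet2-/- against WT in each of the 6 populations; blue points passed an adjusted p of 0.05 and 2-fold, and dotted lines mark 2-fold. Fech lies to the left in GMP (-1.17) and MEP (-1.31) and Cpox to the right in CMP (1.63), and Alas2 was not tested in CLP.

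Whether the rise from CMP to MEP differed between the genotypes was tested as an interaction in one fit of 46 libraries. edgeR called 0 members and 0 of all 22360 genes (0% higher and 0% lower), and DESeq2 called 410 genes higher and 452 lower of 32443 but 0 members. At an unadjusted p under 0.05 only Fech differed, with a rise smaller by 1.09 on the log2 scale in Tet2-/- (log2 difference -1.09, SE 0.47, adjusted p = 0.936). WT means of Fech were 40.7 CPM in CMP and 118 CPM in MEP, and Tet2-/- means 34.9 and 47.8 CPM. Cpox had a log2 difference of -1.08 (SE 0.55, adjusted p = 1), with means of 10.8 and 62.7 CPM in WT and of 33.6 and 92.7 CPM in Tet2-/-.

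A list of 41 other genes of heme and iron handling was followed beside the members. In WT MEP against WT CMP 6 of 40 tested were called higher and 2 lower, where 0.93% and 5.52% of all genes were. Among the higher were Slc25a38, a mitochondrial glycine carrier (53.8 ± 6.41 against 16.7 ± 2.99 CPM, mean ± SD, n = 4 each), Tmem14c, needed for porphyrin import into mitochondria (568 ± 41.5 against 213 ± 33.2), Slc11a2, the divalent metal transporter (81.4 against 23.7), the glutaredoxin Glrx5 (137 ± 9.89 against 34.7 ± 2.95) and biliverdin reductase B, Blvrb (916 ± 83.1 against 119 ± 44.3). Trf, transferrin, was lower (1.98 ± 1.68 against 77.9 ± 6.88), as was Hfe, which was at 0 in all 4 WT MEP libraries. In WT GMP against WT CMP 1 was called higher, the mitochondrial transporter Abcb10, and 1 lower, Blvrb, where 1.6% and 1.54% of all genes were. WT CMP against WT ST-HSC gave 9 higher and 0 lower, where 3.77% and 1.23% of all genes were called. Of the 9, Slc48a1 rose from 40.7 ± 15.1 (n = 3) to 114 ± 7.05 CPM (n = 4; log2 fold change 1.48, SE 0.24, adjusted p = 0.000585). In Tet2-/- it stood at 34.9 ± 13.1 CPM in ST-HSC and 46.5 ± 9.58 CPM in CMP (n = 4 each), and between the genotypes Slc48a1 was called lower in Tet2-/- CMP (log2 fold change -1.31, SE 0.16, adjusted p = 0.00102); the WT CMP libraries are among those that stood apart. WT CLP against WT ST-HSC gave 5 higher and 4 lower, near the 10.2% and 14.3% of all genes, and WT LT-HSC against WT ST-HSC gave 0 in either direction.

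Between the genotypes the same list was followed in each population. In CMP 2 of 39 tested were called higher and 4 lower, where 0.654% and 3.92% of all genes were. In GMP the counts were 0 and 3 of 39, where 0.308% and 4.06% of all genes were called, and in MEP 0 and 5 of 37, where 0.147% and 4.21% were; no gene of the list was called in LT-HSC, ST-HSC or CLP, nor in the interaction. Iscu was at 71.1 ± 13.3 CPM in WT CMP and 4.44 ± 0.970 CPM in Tet2-/- CMP (log2 fold change -4.00, SE 0.23, adjusted p = 2.53e-05), with like falls in GMP (-4.45) and MEP (-4.04). Glrx5, which passes on iron-sulfur clusters, fell in GMP (-1.50) and MEP (-1.97), the heme transporter Slc48a1 in CMP (-1.31) and MEP (-1.35), and Snx3, a sorting nexin that recycles the transferrin receptor, in CMP (-1.57), GMP (-1.05) and MEP (-1.85). Those called higher were both in CMP: Slc40a1, the iron exporter ferroportin, went from 10.0 ± 4.19 to 47.1 ± 11.9 CPM (log2 fold change 2.23, SE 0.35, adjusted p = 0.00448), and Blvrb from 119 ± 44.3 to 296 ± 56.7 CPM (log2 fold change 1.31, SE 0.25, adjusted p = 0.0134). The erythroid marker sum was higher in the same Tet2-/- CMP libraries, as given above, and its part in these differences was not tested. In MEP the iron regulatory proteins Ireb2 (33.3 to 42.4 CPM in WT and 65.4 to 87.1 CPM in Tet2-/-, log2 fold change 0.94, SE 0.15, adjusted p = 0.0051) and Aco1 (27.8 to 32.9 and 41.8 to 56.1 CPM, log2 fold change 0.67, SE 0.13, adjusted p = 0.0183) passed the adjusted p and missed the fold minimum. The level of Snx3 in Tet2-/- CMP, 97.7 ± 37.4 CPM, was near that in WT ST-HSC, 97.6 ± 11.2 CPM, while WT CMP stood at 289 ± 17.5 CPM.

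Across the 46 libraries the members did not form a single pattern. Pearson correlations of log2 CPM were 0.87 for Alad and Urod, 0.84 for Alad and Cpox, 0.79 for Cpox and Tfrc and 0.55 for Fech and Tfrc, and -0.22 for Alas1 and Alad; they describe points that share populations and library depth. Within the 8 MEP libraries, which pool 4 of WT and 4 of Tet2-/- that differ in Fech, the value was 0.76 for Fech and Uros, -0.60 for Fech and Cpox and -0.66 for Fech and Tfrc. Among 8877 genes with a mean of at least 10 CPM, those most like Alas1 over the 46 libraries were Gpi1 (0.92), Tkt (0.91), Lta4h (0.90), Calr (0.89) and 9530068E07Rik (0.88). Among those most like Fech were Lyar (0.81), Ppm1g (0.80), Lsm2 (0.80) and Tamm41 (0.80), and most like Tfrc were Tmem14c (0.88), Tcp1 (0.87), Acaa2 (0.87), Phb (0.86) and Acsl5 (0.86). For Alas2 the closest, Chchd6, reached 0.55, followed by Ing5, Tex10, Cavin1 and Pcbp1 down to 0.53, over libraries in which Alas2 is mostly at or near 0.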

How the data were processed

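Sorted cells gave full-length mRNA libraries, made with a SMART-seq kit per the labels and by a modified SMART-Seq2 protocol per the methods. The authors trimmed reads with Trim Galore (0.5.0 in the methods, 0.6.7 in the submitters' processing notes) and mapped them with Hisat2 (2.1.0 in the methods, 7.5.0 in the notes) to mm10; the notes also name mm9. The counting program, its annotation and its use of strand are not given in the sources used here. The table used here, 1 of those the authors deposited, holds raw read counts by gene, in whole numbers and without normalization. Of 55421 Ensembl IDs in the table, 55154 were found in GENCODE vM21, from which positions and exon lengths were taken. Depth was 50458473 to 102148079 counts per library.

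Tests used edgeR (4.0.16, under R 4.3.3) after its filterByExpr step and TMM scaling, with quasi-likelihood fits at a prior count of 2 and Benjamini-Hochberg adjustment over all genes tested. A standard error is the size of the log2 fold change over the square root of its F. Tet2-/- was compared with WT in fits of the 2 groups in each of 6 populations, 5 pairs of populations were compared in one fit of the 22 WT libraries, and the interaction used all 46, which makes 12 comparisons. The call rule, an adjusted p of 0.05 and 2-fold, is the one the study applied with DESeq2, which was an alternative here (1.42.0). The others were RLE scaling, no low-count filter, other call rules, a replicate block, other sets of libraries in the fit, each library left out and, for levels, other scalings; corrections for GC in the 200 bases at the start and in the whole of the transcript, by medians in 20 bins, were added after seeing the data. On simulated data the procedure recovered 186 of 200 genes changed 4-fold in the design of the MEP comparison (14215 genes) and 96 of 200 in that of LT-HSC (15401 genes). The changed genes were drawn only from those above a minimum mean level, so this recovery does not cover low members such as Alas2. Smaller changes, such as those of the members called between the genotypes, were not simulated.

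Named in the text are all 9 members, at most 12 called genes of the list of 41 in each comparison, and the 5 genes most like each of Alas1, Alas2, Fech and Tfrc; some genes of these lists are not reported here. Klf1, Gata1 and Ighm were picked from the marker lists after their values were seen. The members and lists were chosen with earlier results of these data known. Plots were drawn with matplotlib.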

Additional observations from a re-analysis of the deposited data

Results flagged for a closer look

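Of 88 groups of 4 libraries looked at for a member, 4 held a library far from the other 3 by Dixon's ratio at its 95% critical value, where chance gives about 1 in 20. Fech in replicate 2 of WT CMP was at 73.99 CPM, against 28.4 to 31.5 CPM in the other 3 libraries. Alad in replicate 5 of Tet2-/- GMP was at 73.17 CPM, against 112 to 117 CPM. Uros in replicate 4 of Tet2-/- MEP was at 37.1 CPM, against 28.6 to 29.7 CPM. Tfrc in replicate 2 of Tet2-/- ST-HSC was at 102.8 CPM, against 57.4 to 62.9 CPM.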

How the results depend on the processing

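Of 204 recomputed counts of called members, 186 stayed within 1.5 times, and of 1602 recomputed log2 fold changes of members 15 lost and 16 gained a call and 0 called values changed sign. Without the fold minimum the counts were 3 for Tet2-/- against WT in CMP, 4 for WT CMP against WT ST-HSC and 4 for WT CLP against WT ST-HSC. With an unadjusted p of 0.05 and 2-fold they were 1 for the interaction, 1 for the genotypes in CLP and 5 for WT CLP against WT ST-HSC. In one fit of 46 libraries they were 0 for the genotypes in GMP and 1 in CLP, and after the GC correction, chosen after seeing the data, 4 for WT CLP against WT ST-HSC. Leaving out single libraries gave 0 to 1 members for the genotypes in CMP, 1 to 2 for WT CMP against WT ST-HSC and 1 to 3 for WT CLP against WT ST-HSC. The cause was not tested. Of 216 recomputed mean levels, 19 moved by more than 1 SD.

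The replicate numbers were not taken to pair the samples: same-numbered WT and Tet2-/- libraries of a population had correlations of their deviations from -0.056 to 0.12 (median 0.05), with 4 of 22 over 0.1. Same-numbered libraries of 2 populations had 18 of 60 over 0.1 in Tet2-/- (median 0.054, up to 0.252) and 10 of 51 in WT (median 0.056, up to 0.18), against 4 of 180 and 2 of 150 for unlike numbers; not every pair passed 0.1, so these are a hint from the data and the design gives no pairing. With the replicate block the counts of members were 1 in CMP, 1 in GMP and 1 in MEP for the genotypes, and 6, 2, 2, 2 and 0 for the 5 comparisons of WT populations in the order MEP with CMP, GMP with CMP, CMP with ST-HSC, CLP with ST-HSC and LT-HSC with ST-HSC, as without it. Over all genes the block called 46 higher and 481 lower for the genotypes in CMP, 34 and 624 in GMP and 9 and 517 in MEP, 2 and 0 in both LT-HSC and ST-HSC and 0 in CLP. Leaving out single libraries gave 483 to 656 higher and 147 to 176 lower for WT CMP with ST-HSC, 169 to 265 higher for GMP with CMP, and 2 to 7 higher and 16 to 25 lower for LT-HSC with ST-HSC. Over all genes DESeq2 called more than edgeR: 321 higher and 914 lower against 105 and 629 for the genotypes in CMP, 180 and 892 against 51 and 672 in GMP, and 117 and 932 against 22 and 629 in MEP; 150 and 80 in LT-HSC, 193 and 132 in ST-HSC, 277 and 166 in CLP and 410 and 452 for the interaction, where edgeR called 4, 3, 1 and 0 higher and 0 lower. Between WT populations DESeq2 called 418 higher and 1948 lower against 186 and 1105 for MEP with CMP, 744 and 689 against 321 and 309 for GMP with CMP, 1529 and 728 against 755 and 246 for CMP with ST-HSC, 2964 and 3100 against 2043 and 2858 for CLP with ST-HSC, and 356 and 432 against 6 and 29 for LT-HSC with ST-HSC. One fit of 46 libraries called 1002 higher and 475 lower for the genotypes in CLP, 12 and 273 in CMP, 5 and 214 in GMP, 18 and 405 in MEP, 6 and 14 in LT-HSC and 4 and 17 in ST-HSC; between WT populations it called 187 and 253 for GMP with CMP, 511 and 168 for CMP with ST-HSC and 0 and 21 for LT-HSC with ST-HSC. A fit of the 2 populations alone called 566 and 1716 for MEP with CMP, 1325 and 866 for GMP with CMP, 1265 and 747 for CMP with ST-HSC, 997 and 1250 for CLP with ST-HSC and 12 and 21 for LT-HSC with ST-HSC. Alas2 was at 0 in 17 libraries, so its fold changes rest on few counts.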
